A study of Mus musculus with 28 samples.

Results

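A list of 34 mouse genes of the interferon response and of antigen presentation was followed through single Müller glial cells (MGCs). The genes were listed by name, with earlier results of these data known. The list holds the chains of MHC class I, the peptide loading proteins, the subunits of the immunoproteasome, the interferon receptors, their kinases and the transcription factor Stat2, the interferon regulatory factors and 8 response genes. Of the 34 genes, 32 were measured by a probe set that carries 1 gene symbol, out of 18194 genes so measured on the array. H2-T23 and Psme2 had only probe sets that carry several symbols and were not analysed here.

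MGCs are the main glia of the retina. Interferons bind receptors at the cell surface, the receptors switch on Jak kinases and Stat factors, and these switch on a set of response genes. Interferon also raises the machinery that displays peptides to T cells: the immunoproteasome cuts proteins, the Tap transporter and tapasin load the peptides, and a class I heavy chain with beta-2-microglobulin carries them to the cell surface. Endothelial cells of blood vessels are known to express many of these genes without an added stimulus.

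Each of the 28 arrays was made from the amplified cDNA of 1 cell that was picked by its shape from dissociated retina. Adult WT mice on C57/BL6 gave 5 cells, from animals older than 25 weeks by the labels, whereas the study's text gives a much younger lower limit. By the paper, these 5 cells had been published earlier by the same laboratory and were reused as controls. Earlier profiling and genotype thus cannot be told apart in any comparison with adult WT. Rhod-ko mice on C57/BL6, in which the rhodopsin gene of the rods is deleted, gave 5 cells at each of 8 and 25 weeks. FVB mice carry the rd1 mutation in Pde6b, a rod phosphodiesterase gene, and gave 5 cells at P13 and, at 5 weeks, 5 arrays, while congenic FVB mice (FVB.129P2-Pde6b+Tyrc-ch/AntJ), without that mutation, gave 3 cells at P13. The C57BL/6 and FVB strains carry different MHC haplotypes, so strain, model and age cannot be told apart where rd1 cells are set against adult WT.

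Among the rd1 arrays at 5 weeks, A5 and A6 were close to identical (r of 0.989 between log2 signals by Pearson's formula, where no other of the 377 pairs of arrays passed 0.764). Their signals were averaged and counted as 1 cell, which left 4 cells in that condition and 27 in all. The signal is the linear MAS5 intensity, and a signal of 2000 or more counted as on. The labels tie no cell to an animal. Every condition was therefore treated as a single sample made of several cells, without tests between conditions. Differences are those of group medians of log2 signal after values under 1000 were raised to 1000, and a difference of 1, which is 2-fold, was used as a rule of size. Where a group median lay under 1000 the fold is written "at least". A count of 5 of 5 cells allows a share of 47.8% to 100%, and 0 of 5 cells a share of up to 52.2% (exact binomial 95% intervals, counting error only).

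Several features of the cells went along with the groups. All 3 congenic FVB cells had 14 to 16 of 16 measured endothelial markers on, rd1 cells A1 and B1 at P13 had 16 and 13 on, and every other cell had 0 to 3. The same 5 cells had 2 to 7 of 19 MGC markers on, against 12 to 18 in the other cells, so their MGC label was not borne out. Rhod-ko 8 weeks cell 7 had 6 of 17 markers of microglia and macrophages on, with Csf1r at 118151 and Tyrobp at 35029.8, whereas the other cells had 0 or 1. The ratio of the 3′ to the 5′ Gapdh probe sets, a sign of cDNA length, was 3.95 to 18.2 in Rhod-ko at 8 weeks, 0.554 to 4.06 in adult WT and 1.17 to 3 in the other conditions. The part of these features in the results below was not tested.

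Sequences upstream of the genes were searched for the letters of the known interferon elements. The core of the interferon-stimulated response element was taken as GAAA, any 2 bases and GAAA again, and the gamma-activated site as TTCNNNGAA, both were searched on both strands, and the window was the 250 bases before the RefSeq start (GRCm38.p6). RefSeq entries were at hand for 32 of the 34 genes, Tap2 and Ifi27 being the others. The first element was found in 9 of the 38 promoters of these genes (23.7%), against 2.98% of all 32851 promoters. These were the promoters of B2m, H2-T23, Stat2, Irf2, Ifit1, Ifit3, Bst2, Gbp2 and Ifitm2. The second was found in 7 of the 38 (18.4%), against 7.02% of all, in Psmb8, Ifnar2, Irf1, Irf2, Irf8, Ifit2 and Bst2. In Bst2 the matches overlapped one another. A match of letters is a description of the sequence and not a site of binding. The promoters of B2m, Ifitm2 and Ifit3 are shown because these members, which hold the first element, are described cell by cell below. Capitals mark the first element, which begins 139 bases before the start in B2m (chr2:122147437-122147686, plus strand), 46 bases before it in Ifitm2 (chr7:140955962-140956211, minus strand), and 156 and 122 bases before it in Ifit3 (chr19:34583279-34583528, plus strand).
B2m: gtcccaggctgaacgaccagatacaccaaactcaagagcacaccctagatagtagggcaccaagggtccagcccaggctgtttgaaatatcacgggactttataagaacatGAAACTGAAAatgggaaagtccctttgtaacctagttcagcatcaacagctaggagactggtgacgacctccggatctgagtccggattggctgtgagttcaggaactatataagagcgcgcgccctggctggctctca
Ifitm2: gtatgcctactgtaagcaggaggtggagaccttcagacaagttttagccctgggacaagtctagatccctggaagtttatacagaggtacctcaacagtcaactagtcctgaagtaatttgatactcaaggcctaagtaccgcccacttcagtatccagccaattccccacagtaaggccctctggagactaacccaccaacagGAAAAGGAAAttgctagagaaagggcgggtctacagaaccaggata
Ifit3: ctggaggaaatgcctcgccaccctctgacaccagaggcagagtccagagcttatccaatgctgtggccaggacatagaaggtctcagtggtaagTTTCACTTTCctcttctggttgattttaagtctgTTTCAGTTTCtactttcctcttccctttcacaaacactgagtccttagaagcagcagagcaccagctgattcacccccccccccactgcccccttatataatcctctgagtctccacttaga

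Fewer of the 32 genes were on in adult WT cells than in most cells of the other conditions. Adult WT cells had 1 to 7 of them on (median 4), Rhod-ko cells 9 to 15 at 8 weeks (median 11) and 6 to 12 at 25 weeks (median 10). The Rhod-ko cells at 8 weeks thus all lay above the adult WT cells. Congenic FVB cells had 11 on in each of the 3 cells. The rd1 cells at P13 divided, with 14 and 16 in the endothelial-like cells A1 and B1 and 2 to 6 in B4, A4 and B3, and rd1 cells at 5 weeks had 8 to 11 (median 9). Over all 18194 genes, the share on per cell was 10.2% to 14.3% in adult WT, 10.8% to 13% in Rhod-ko at 8 weeks and 14.7% to 17.2% in Rhod-ko at 25 weeks, so the cells at 8 weeks had about as many genes on as adult WT in all. It was 16.1% to 16.5% in congenic FVB, 15.6% to 16.9% in rd1 at P13 and 10.2% to 17.6% in rd1 at 5 weeks, so that all P13 cells, those with few members on included, had more genes on than any adult WT cell.

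**Figure D1:**
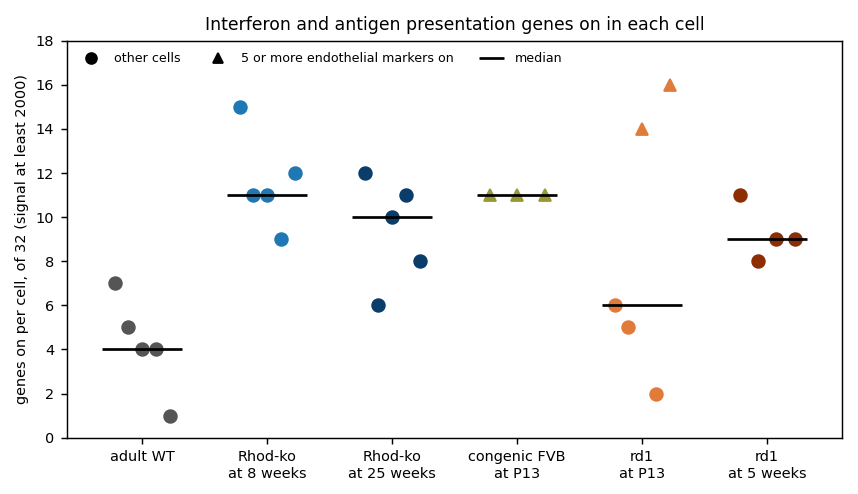
Number of the 32 measured genes on in each cell (signal of at least 2000, vertical axis) by condition, where each symbol is 1 cell, triangles are cells with 5 or more endothelial markers on and bars are medians. The adult WT cells lie at 1 to 7, those of Rhod-ko at 8 weeks between 9 and 15, and the rd1 cells at P13 divide into 2 to 6 and 14 to 16.

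The 32 genes differed widely in how often they were on. Tap2, Psmb9, Tyk2, Irf2, Irf8 and Bst2 were on in none of the 27 cells. B2m was on in 21 cells, H2-K1 and Psme1 in 20 each, Ifitm3 in 16, and Tapbp, Psmb10 and Ifit3 in 14 each. The remaining members were on in 1 to 13 cells.

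**Figure D2:**
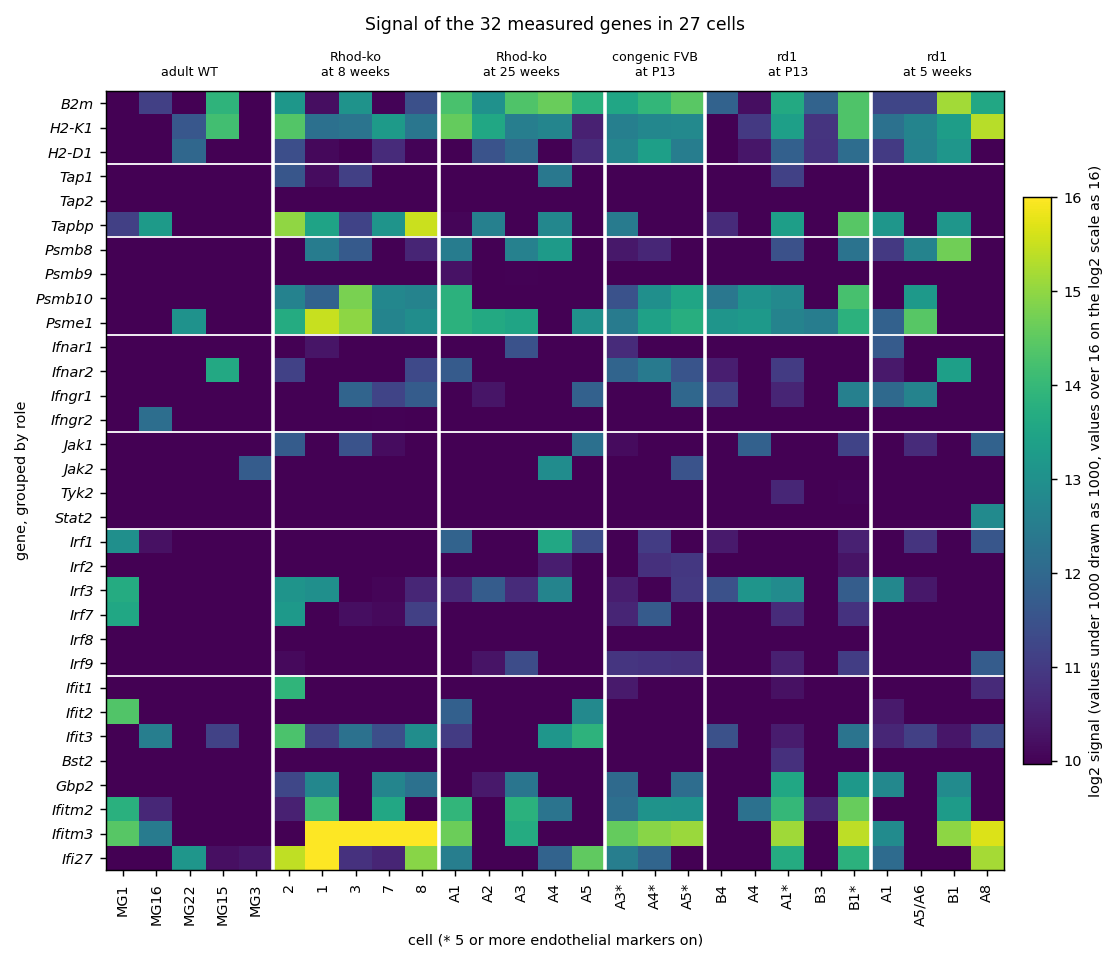
Log2 signal (colour, values under 1000 drawn as 1000 and log2 values over 16 as 16) of the 32 measured genes (rows, grouped by role) in the 27 cells (columns, grouped by condition), where asterisks mark cells with 5 or more endothelial markers on. Adult WT columns are mostly dark, the class I rows of B2m and H2-K1 are bright in most other columns, and the rows of Tap2, Psmb9, Tyk2, Irf2, Irf8 and Bst2 stay dark or nearly dark throughout.

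Among the class I chains, B2m, the light chain shared by class I molecules, was divided in adult WT. Its signals there were 627.0 in MG1, 2224 in MG16, 83.9 in MG22, 15172 in MG15 and 116.0 in MG3. In Rhod-ko at 8 weeks they were 9137 in cell 2, 1159.9 in cell 1, 8617 in cell 3, 1042 in cell 7 and 2762 in cell 8. At 25 weeks all Rhod-ko cells were on, at 19832, 8359, 20559, 25396 and 14398 in A1 to A5, and the lowest of these lay above every adult WT cell but MG15. The congenic FVB cells had 11917, 15879 and 22483 in A3, A4 and A5. In rd1 at P13 the 2 endothelial-like cells A1 and B1 had 12652 and 20658, while B4, A4 and B3 had 3702, 1167 and 3769. At 5 weeks the rd1 cells were all on, at 2412.5 in A1, 2410.7 in A5/A6, 36472 in B1 and 12251 in A8. By the higher probe set in each cell, B2m was thus on in every cell of 3 conditions, and adult WT, Rhod-ko at 8 weeks and rd1 at P13 held cells with and without it. Its 2 probe sets differed, with 20 and 15 cells on. The latter was on in no Rhod-ko cell at 8 weeks (457.7 to 1782.1). It was also under 2000 in rd1 5 weeks A1 (1206.0) and A5/A6 (1627.8). MG16 was on by the latter only (2224.1, against 29.6).

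H2-K1, a class I heavy chain, was on in 2 of 5 adult WT cells, at 3109 in MG22 and 18386 in MG15, with 96.9 in MG1, 50.5 in MG16 and 555.0 in MG3. Every Rhod-ko cell at 8 weeks had it on, at 21524, 4714, 5032, 9746 and 5200.2 in cells 2, 1, 3, 7 and 8. At 25 weeks it was on in 4 of 5, at 24443, 12011, 5939, 6753 and 1477 in A1 to A5. Both Rhod-ko ranges overlapped with adult WT through MG15, and that at 25 weeks through MG22 as well. Congenic FVB cells lay close together at 6043, 6887 and 7124. The rd1 cells at P13 had 10570 and 20867 in A1 and B1 and 333.2, 1998.6 and 1868 in B4, A4 and B3, so cell A4 lay just under the threshold. At 5 weeks all 4 rd1 cells were on, at 4736, 6551, 10238 and 41723 in A1, A5/A6, B1 and A8. Of the 4 probe sets for H2-K1, one was on in 19 cells, the others in 13, 9 and 0. All 4 are of the kind whose probes can also bind related genes, and class I heavy chains resemble each other.

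H2-D1, another heavy chain, was on in every congenic FVB cell, at 6761, 10603 and 5847 in A3, A4 and A5. The rd1 cells at P13 had 3584 and 4453 in A1 and B1 and 247.0, 1290.1 and 1845 in B4, A4 and B3, all under the congenic cells. In adult WT only MG22 was on, at 4015, and the other 4 cells ran from 142.3 to 590.7. Of the Rhod-ko cells, 1 of 5 at 8 weeks (cell 2, 2714) and 2 of 5 at 25 weeks had it on (A2, 2894, and A3, 4227). At 5 weeks rd1 cells A1, A5/A6 and B1 had 2026, 6437 and 9071, and A8 had 912.4. Its 9 probe sets gave different counts, with 11 and 9 cells on for the highest and 0 or 1 for the other 7.

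In peptide loading, Tapbp, which encodes tapasin, was on in all Rhod-ko cells at 8 weeks, at 32607, 11362, 2329.7, 8726 and 46961 in cells 2, 1, 3, 7 and 8. In adult WT it was on in MG1 (2210.2) and MG16 (9761) and at 177.9, 23.1 and 197.2 in MG22, MG15 and MG3. The groups overlapped through MG16, which lay above cells 3 and 7. At 25 weeks it was on in A2 (6171) and A4 (6910.2) and at 1053.5, 72.8 and 330.3 in A1, A3 and A5. Congenic FVB cells had 5673, 459.2 and 921.3, the rd1 cells at P13 had 10477 and 22175 in A1 and B1 and 1661, 46.4 and 96.8 in B4, A4 and B3, and those at 5 weeks had 9056, 62.1, 8972 and 407.9 in A1, A5/A6, B1 and A8. Tapbp was on in all cells of 1 condition only, and mixed in the other 5. These values come from 1 of its 2 probe sets. The other was on in no cell, at 73.8 to 754.2 in Rhod-ko at 8 weeks. Tap1, a subunit of the peptide transporter, was on in 4 cells, all of which also had Tapbp on: Rhod-ko 8 weeks cells 2 (3074) and 3 (2203.5), Rhod-ko 25 weeks A4 (5328.5) and rd1 P13 A1 (2241.5). Tap2, its partner, stayed at or below 556.2 in all cells.

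In the immunoproteasome, Psmb10, one of its catalytic subunits, gave the clearest division. It was at 24.4, 16.7, 25.9, 105.7 and 274.3 in the adult WT cells MG1, MG16, MG22, MG15 and MG3. The Rhod-ko cells at 8 weeks had 6411, 3752, 28099.6, 6914 and 6534 in cells 2, 1, 3, 7 and 8. These groups did not overlap, and Psmb10 was the only 1 of the 32 members for which this went with a difference of at least 2-fold over the floor (the ranges of Irf9 did not overlap either, at 8.2 to 428.6 against 473.7 to 1106.3, mostly under the floor). At 25 weeks only A1 was on, at 14634, and A2 to A5 ran from 93.9 to 256.2. Congenic FVB cells had 2851, 8080.0 and 11757, and 4 of 5 rd1 cells at P13 were on, at 5277 in B4, 8407 in A4, 7202 in A1 and 19402 in B1, with B3 at 431.4. At P13 the endothelial-like cells and the MGC-like cells B4 and A4 were thus on alike. At 5 weeks A5/A6 had 9649 and the other rd1 cells 93.8 to 847.9.

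Psme1, a subunit of the PA28 cap of the proteasome, was on in adult WT only in MG22, at 8477, with 7.8 in MG1, 1.6 in MG16, 761.4 in MG15 and 80.5 in MG3. It was on in all Rhod-ko cells at 8 weeks, at 13113, 46449, 31977, 6585 and 7813 in cells 2, 1, 3, 7 and 8. At 25 weeks it was at 14736, 12675, 11450.3 and 8253 in A1, A2, A3 and A5 and at 10.1 in A4. MG22 lay above cells 7 and 8 and above A4 and A5, so both Rhod-ko conditions overlapped with adult WT. All P13 cells were on, the congenic FVB cells at 5686, 10959.8 and 13874 and the rd1 cells at 8880.0 (B4), 9383 (A4), 6463 (A1), 5873 (B3) and 14685 (B1). At 5 weeks rd1 A1 and A5/A6 had 3666 and 22290.2, and B1 and A8 had 13.4 and 16.1. Every one of the 14 cells with Psmb10 on also had Psme1 on, 6 cells had Psme1 alone and 7 had neither (Spearman's rho 0.71 over the 27 cells, as a description, since cells share conditions).

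Psmb8, another catalytic subunit, lay at 69.0 to 215.7 in adult WT. Its signal reached the threshold in Rhod-ko in 2 of 5 cells at 8 weeks and 3 of 5 at 25 weeks (highest 9719), in 2 of 5 rd1 cells at P13, both endothelial-like, and in 2 of 4 rd1 cells at 5 weeks (highest 26436). No congenic FVB cell had it on (0 of 3). Psmb9, the remaining catalytic subunit of the immunoproteasome, had its highest signal at 1236, in Rhod-ko 25 weeks A1.

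**Figure D3:**
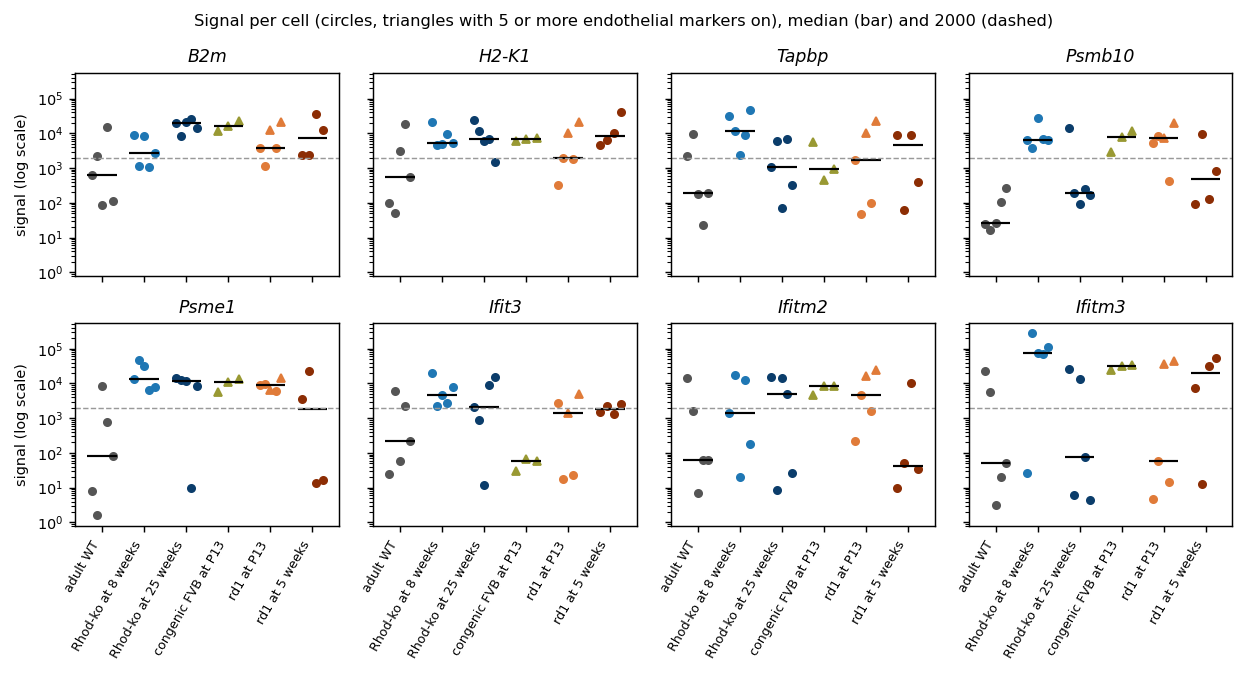
Signal in each cell (log axis) of 8 members by condition, where circles and triangles are cells, triangles have 5 or more endothelial markers on, bars are medians and the dashed line is the threshold of 2000. Psmb10 is at most 274.3 in adult WT, while at 8 weeks no Rhod-ko cell is under 3752, and Ifitm3 is at least 5655 or at most 77.9 in each of the 27 cells.

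Of the interferon receptors, Ifnar2, a chain of the type I receptor, was on in every congenic FVB cell, at 3866, 5533 and 2944 in A3, A4 and A5. No rd1 cell at P13 reached these, the values being 1432 in B4, 56.9 in A4, 2072.6 in A1, 20.2 in B3 and 294.0 in B1. In adult WT only MG15 was on, at 12567, with 12.9 to 585.5 in the others. It was on in Rhod-ko 8 weeks cells 2 (2228) and 8 (2510.2), the other 3 lying at 245.3 to 327.5, in 25 weeks A1 (3312), the others lying at 5.3 to 50.4, and in rd1 5 weeks B1 (10541), the others lying at 52.3 to 1339. Ifngr1, the ligand-binding chain of the interferon gamma receptor, was on in no adult WT cell (47.2, 7.8, 33.1, 332.4 and 790.0 in MG1, MG16, MG22, MG15 and MG3). Among Rhod-ko cells at 8 weeks it was at 379.5 and 881.7 in cells 2 and 1 and on in cells 3, 7 and 8 at 3828, 2345 and 3362. At 25 weeks A5 was on at 3655, with 778.8, 1259, 35.7 and 58.4 in A1 to A4. At P13 it was on in congenic A5 (4024), not in A3 (752.0) or A4 (134.3), and in rd1 B4 (2224) and B1 (6196), not in A4 (213.8), A1 (1551) or B3 (186.4). At 5 weeks rd1 A1 and A5/A6 were on at 4207 and 6451, B1 and A8 being at 164.3 and 640.6. Ifnar1 was on in 2 cells (Rhod-ko 25 weeks A3 and rd1 5 weeks A1) and Ifngr2 in 1 (adult WT MG16).

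Of the signalling genes, Jak1, a kinase of both receptor types, was on in no adult WT cell (108.5, 187.6, 233.3, 882.9 and 459.3) and in no congenic FVB cell (1129, 13.5 and 109.9). It was on in Rhod-ko 8 weeks cells 2 (3398) and 3 (2939), cells 1, 7 and 8 being at 764.2, 1148 and 96.6. At 25 weeks A5 was on (4699.6), with 195.1 to 759.0 in the other cells. At P13 rd1 A4 (3651) and B1 (2320.5) were on, B4, A1 and B3 being at 43.4, 907.1 and 330.2, and at 5 weeks A8 (3731) was on, A1, A5/A6 and B1 being at 446.6, 1682 and 241.2. Jak1 was on in at most 2 cells of any condition. Jak2 was on in 3 cells and Stat2 in 1, the rd1 5 weeks cell A8 at 7407. Tyk2 reached at most 1557.

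Of the interferon regulatory factors, Irf3, which is present before any stimulus in many cells, was on in adult WT MG1 at 13215 and at 104.4, 28.4, 143.0 and 278.2 in MG16, MG22, MG15 and MG3. Rhod-ko at 8 weeks had 8766 in cell 2 and 8003 in cell 1, while cells 3, 7 and 8 had 789.4, 1060.0 and 1564. At 25 weeks A2 (3351) and A4 (6607) were on, with 1628.5, 1675 and 390.7 in A1, A3 and A5. The congenic FVB cells were at 1403, 51.4 and 1997, and 4 of 5 rd1 cells at P13 were on, at 2828 (B4), 8926 (A4), 7574 (A1) and 3417 (B1), with B3 at 1001.4. At 5 weeks A1 had 6968 and the others 157.5 to 1311.5. It was the factor on most often at P13 in rd1 and the only member at least 2-fold higher there than in the congenic cells. The 4 probe sets of Irf3 differed, with 10, 4, 2 and 0 cells on. That with 10 is of the kind whose probes can also bind related genes. It alone was on in MG1 and in rd1 5 weeks A1, where the others were at most 264.2 and 597.1. Irf1, itself a response gene of interferon gamma, was on at 25 weeks in 3 of 5 Rhod-ko cells (highest 12240.2) and in at most 1 cell of any other condition. Irf7, a response gene of type I interferon, was on in 4 cells, among them adult WT MG1 (12085) and Rhod-ko 8 weeks cell 2 (9476). Irf9 was on in 3 cells, while Irf2 and Irf8 stayed under 2000 in all.

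Of the response genes, Ifitm3, a membrane protein that restricts the entry of viruses, was either high or near background. In adult WT it was at 22218 in MG1 and 5655 in MG16 and at 3.1, 20.5 and 52.0 in MG22, MG15 and MG3. Rhod-ko cells at 8 weeks had it at 291673, 76408, 68416 and 112473 in cells 1, 3, 7 and 8, above every other cell of the series, but at 27.0 in cell 2. At 25 weeks it was at 25537 and 13110.4 in A1 and A3 and at 6.0, 77.9 and 4.5 in A2, A4 and A5. All congenic FVB cells were on, at 24343, 31301 and 34788. In rd1 at P13 it was on in the endothelial-like cells A1 (36137) and B1 (43246) and at 4.6, 58.5 and 14.7 in B4, A4 and B3. At 5 weeks, where no cell had more than 2 endothelial markers on, 3 of 4 rd1 cells were on, at 7553, 32380.1 and 52444 in A1, B1 and A8, with 12.6 in A5/A6.

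Ifitm2, a close relative of Ifitm3 that lies near it in the genome, was on in 13 cells, in 11 of them together with Ifitm3. In adult WT only MG1 was on, at 14291, with 1594.0, 7.0, 61.5 and 62.2 in MG16, MG22, MG15 and MG3. Rhod-ko 8 weeks cells 1 and 7 were on at 17511 and 12224, with 1459, 20.7 and 181.6 in cells 2, 3 and 8, although cells 3 and 8 had high Ifitm3. At 25 weeks A1, A3 and A4 were on at 15659, 14371 and 5011, A2 and A5 being at 8.6 and 26.9. At P13 the congenic FVB cells had 4573, 8567 and 8391, rd1 A1 and B1 were at 16158 and 24970, A4 (4742) was on as well, with 219.6 and 1564 in B4 and B3. At 5 weeks only rd1 B1 was on, at 9982, the others lying at 9.9 to 50.2. Each of these 2 genes had 1 probe set, and probes for such close relatives may bind both.

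Ifit3, one of the tetratricopeptide repeat proteins made after type I interferon, was on in all 5 Rhod-ko cells at 8 weeks, at 19981, 2250.3, 4745, 2728 and 7714 in cells 2, 1, 3, 7 and 8. In adult WT it was on in MG16 (5974) and MG15 (2286), with 25.0, 57.1 and 228.1 in MG1, MG22 and MG3, so the ranges overlapped. At 25 weeks A1 (2067), A4 (9029.7) and A5 (14989) were on, and A2 and A3 had 908.0 and 12.2. It was at 29.9, 67.9 and 58.2 in the congenic FVB cells, unlike the class I chains and Ifitm3. The rd1 cells at P13 had 2817 in B4, 17.3 in A4, 1377 in A1, 23.4 in B3 and 4971 in B1, and those at 5 weeks had 1558, 2219.5, 1291.5 and 2494.5 in A1, A5/A6, B1 and A8. Its relatives were rarer. Ifit1 was on in Rhod-ko 8 weeks cell 2 alone, at 15377, and Ifit2 in adult WT MG1 (21151) and Rhod-ko 25 weeks A1 (3601) and A5 (7136), so the 3 genes were seldom on together: Ifit2 and Ifit3 in 2 cells, Ifit1 and Ifit3 in 1.

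Gbp2, a guanylate-binding protein made after interferon gamma, was at most 807.5 in adult WT. Rhod-ko had it on in 4 of 5 cells at 8 weeks (highest 6917) and 1 of 5 at 25 weeks, and so had 2 of 3 congenic FVB cells, 2 of 5 rd1 cells at P13, both endothelial-like (11985 and 9308.5), and 2 of 4 rd1 cells at 5 weeks. Ifi27, an interferon-inducible protein of membranes, was on in 1 of 5 adult WT cells, 3 of 5 Rhod-ko cells at each age with the highest signal at 133979 in cell 1 at 8 weeks, 2 of 3 congenic FVB cells, 2 of 5 rd1 cells at P13 (again A1 and B1) and 2 of 4 at 5 weeks. Bst2, which encodes tetherin, reached at most 1794.

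The first comparison asks how Rhod-ko MGCs at 8 weeks, in the phase of rod death, differ from adult WT. Of the 32 genes, 10 were at least 2-fold higher at the median (6.17% of all 18194 genes were) and 0 were at least 2-fold lower (5.12% of all). This 0 was fixed in advance, as with the floor of 1000 a lower call needs an adult WT median of at least 2000. No member had one, the highest being 1181.6 in Ifi27. The same holds for each comparison with all adult WT cells below. The medians of 15 members, and of 80.2% of all genes, lay under 1000 in both groups. When only the 2369 genes whose median over the 27 cells reached 1000 were taken, 33.7% were higher and 25.8% lower, against 8 and 0 of the 11 members in this class. Of all members only Ifi27 had an adult WT median over 1000. The other members of this class thus entered it mainly through the other conditions, and these counts are no independent support. The 10 higher members came from the class I chains (2 of 3), peptide loading (1 of 3), the immunoproteasome (2 of 4), the receptors (1 of 4) and the response genes (4 of 8), and 0 of 4 signalling genes and 0 of 6 interferon regulatory factors were among them. Ifitm3 was at least 76.4-fold higher, Ifi27 26.5-fold, Psme1 at least 13.1-fold, Tapbp at least 11.4-fold, Psmb10 at least 6.53-fold, H2-K1 at least 5.2-fold, Ifit3 at least 4.75-fold, Gbp2 at least 4.73-fold, B2m at least 2.76-fold and Ifngr1 at least 2.34-fold. The 2 probe sets of Ifi27 differed, with 4241 and 31345 in cell 8, and its fold rests on the higher of them in each cell. The call for B2m rests on 1 of its 2 probe sets, and so does that for Tapbp. The other B2m probe set, at most 1782.1 in the cells at 8 weeks, could give no 2-fold difference over the floor. Of the members at least 2-fold higher, Psmb10 alone was so without overlap of cells (1 of 32, against 0.698% of all genes), and no member was lower without overlap (0.506% of all). The cells at 8 weeks differed from adult WT in age as well as genotype, and in the Gapdh ratio given above. They also differed in that the adult WT cells came from the earlier publication. Without cells 7 and 8, which had the most rod markers on (8 and 7 of 13), 13 members were higher and 0 lower. The share of all genes higher without these cells is not given here, and again no member could be called lower. The calls for B2m and Ifngr1 were lost without single cells: the log2 difference of B2m, 1.47, fell to 0.84 without cell 2 or 3 and 0.89 without adult WT MG1, MG22 or MG3, and that of Ifngr1, 1.23, to 0.61 without cell 3 or 8 and 0.87 without cell 7. The call for B2m was also lost with the arrays scaled to the same 90th percentile. The calls of the other 8 members held when any 1 cell was left out, with log2 differences between 1.56 (H2-K1) and 6.53 (Ifitm3). Without 1 of the adult WT cells H2-K1 fell to 1.56 (MG1, MG16 or MG3), Ifit3 to 1.65 (MG1, MG22 or MG3), Tapbp to 2.93 and Ifitm3 to 5.01 (MG22, MG15 or MG3), and Ifi27 fell to 2.67 without cell 2 or 1. Tapbp went to 4.27 without cell 3 or 7, and Psme1 to 4.36 without cell 7 or 8.

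The second comparison sets Rhod-ko at 25 weeks, in the later phase of cone death, against adult WT. At least 2-fold higher were 8 of the 32 genes (7.9% of all genes), and 0 were lower (3.7% of all). With all cells no member could be called lower, as at 8 weeks. Of the 2369 genes with the higher overall median, 39% were higher and 15.8% lower, against 6 and 0 of the 11 members among them. The limit given for this class at 8 weeks holds here too. No member was higher or lower without overlap of cells (0.324% and 0.121% of all). B2m was at least 19.8-fold higher, Psme1 at least 11.5-fold, H2-K1 at least 6.75-fold, Psmb8 at least 5.79-fold, Ifitm2 at least 5.01-fold, Ifi27 3.23-fold, Irf1 at least 2.64-fold and Ifit3 at least 2.07-fold. More genes were on in these cells, and scaling the arrays to the same 90th percentile shifted the median difference of the 2369 genes by -0.80 and the share of higher genes among all calls from 68.1% to 42.2% (56.4% with quantile normalization). With either scaling 6 members were higher and 0 lower, Ifit3 and Ifi27 being lost. Their log2 differences, 1.05 and 1.69, also fell to 0.45 and 0.73 without a single cell (adult WT MG1, MG22 or MG3 for Ifit3, A1 or A5 for Ifi27), and that of Irf1, 1.4, to 0.7 without A1 or A4 and 0.97 without A5. Of the calls that held, B2m fell to 3.73 (adult WT MG1, MG22 or MG3), H2-K1 to 1.94 (adult WT MG1, MG16 or MG3), Psmb8 to 1.27 (A3 or A4) and Ifitm2 to 1.16 (A1 or A3). Ifitm3, at 0.00 with all cells, moved both ways. It was lower at 25 weeks without adult WT MG22, MG15 or MG3 (-1.25) and higher without A2, A4 or A5 (1.86). H2-D1, Tapbp and Irf3 also became at least 2-fold higher at 25 weeks without some single Rhod-ko cells. Psmb10 and Tapbp, on in all cells at 8 weeks, had medians of 197.7 and 1053.5 at 25 weeks. The 2 ages share the adult WT cells and were not compared with each other by a test.

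The third comparison sets rd1 at P13, during rod death, against congenic FVB at P13, and here the direction was the opposite. Of the 32 genes, 7 were at least 2-fold lower in rd1 (6.41% of all genes) and 1 higher (4.79% of all). Of the 2369 genes 14.5% were lower and 22% higher, against 5 and 1 of the 11 members. Lower were Ifitm3, at least 31.3-fold, Gbp2, at least 4.22-fold, B2m, 4.21-fold, Ifi27, at least 3.9-fold, Ifnar2, at least 3.87-fold, H2-D1, 3.66-fold, and H2-K1, 3.45-fold. H2-D1 and Ifnar2 were lower without overlap of cells (2 of 32, against 0.835% of all genes), and 0 were higher so (0.352% of all). For Ifnar2 the separation appeared in 1 of its 3 probe sets. Another had 1045.4, 2.2 and 2943.9 in congenic A3, A4 and A5 against up to 2072.6 in rd1, and the last was on in no cell. The gene that was higher was Irf3, 2.44-fold. In its probe set with 4 cells on, the rd1 median was 1932.7 and the congenic cells lay under 1000. This falls short of 2-fold over the floor. All 3 congenic cells but only 2 of 5 rd1 cells were endothelial-like, with 14 to 16 and 13 to 16 endothelial markers on, and the summed endothelial signal was 187614 to 255676 in the congenic cells and 7577 to 199548 in the rd1 cells. Without rd1 B4, A4 or B3, the count of lower members was 4 in place of 7, and the calls for H2-K1, Gbp2 and Ifi27 were lost (log2 differences up to -0.58, -0.47 and -0.11), while Ifitm3 went from -4.97 to -2.38. B2m went from -2.07 to -1.2 without B4 or A4. With A1 and B1 left out, 8 were lower and 1 higher. When adult WT replaced the congenic cells as control, 5 members were higher and 0 lower, and with only the MGC-like cells B4, A4 and B3, 4 were higher and 0 lower. Against adult WT no member could be called lower, for the reason given above. The shares of all genes with these changed cells or controls are not given here.

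Among the P13 cells, B2m, H2-K1, H2-D1, Irf9 and Ifitm3 were higher in each of the 5 endothelial-like cells than in any of the rd1 cells B4, A4 and B3, and no member was lower so. This was 5 of 32, against 1.87% of all genes that were higher so and 2.04% that were lower so. Of the 2369 genes, 5.19% were higher so, and 4 of the 11 members. All 5 endothelial-like cells had B2m, H2-K1, H2-D1, Psmb10, Psme1, Ifitm2 and Ifitm3 on. Of these, Psme1 was on in 3 of the 3 MGC-like cells, B2m and Psmb10 in 2, Ifitm2 in 1, and H2-K1, H2-D1 and Ifitm3 in 0. The 2 rd1 endothelial-like cells had 14 and 16 members on and the congenic ones 11 each. Psmb8, Tapbp and Irf3 were on in both of the former and in 0, 1 and 0 of the 3 congenic cells. These sets of cells were made from marker genes in these data and are too few for any test.

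The fourth comparison sets rd1 at 5 weeks against adult WT. At least 2-fold higher were 8 of the 32 genes (6.35% of all genes) and 0 were lower (4.25% of all), with none higher or lower without overlap of cells (0.308% and 0.11% of all). Here too the adult WT medians allowed no member to be called lower. Of the 2369 genes 32.2% were higher and 19.8% lower, against 5 and 0 of the 11 members, with the limit of this class given above. Ifitm3 had a log2 difference of 3.97, H2-K1 of 3.03, B2m of 2.44, H2-D1 of 1.85, Psmb8 of 1.84, Tapbp of 1.58, Gbp2 of 1.41 and Ifngr1 of 1.04. All 3 class I chains were thus higher. The adult WT medians of all 8 members lay under 1000, so that each difference was taken from the floor. In Tapbp, Gbp2 and Ifngr1 1 of the 2 middle rd1 cells also lay under 1000, so that their rd1 medians depend on the floor as well. Each of these 3 fell to 0.00 when a cell with the gene on was left out (A1 or B1 for Tapbp and Gbp2, A1 or A5/A6 for Ifngr1). Psmb8 fell to 0.99 without A5/A6 or B1. The calls of the other 4 held, B2m falling to 1.27 without B1 or A8, H2-D1 to 1.02 without A5/A6 or B1, H2-K1 to 2.22 without adult WT MG1, MG16 or MG3, and Ifitm3 to 2.72 without adult WT MG22, MG15 or MG3. Against congenic FVB in place of adult WT, which matches the strain but neither age nor cell type, 3 members were higher and 6 lower. The shares of all genes with that control are not given here.

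**Figure D4:**
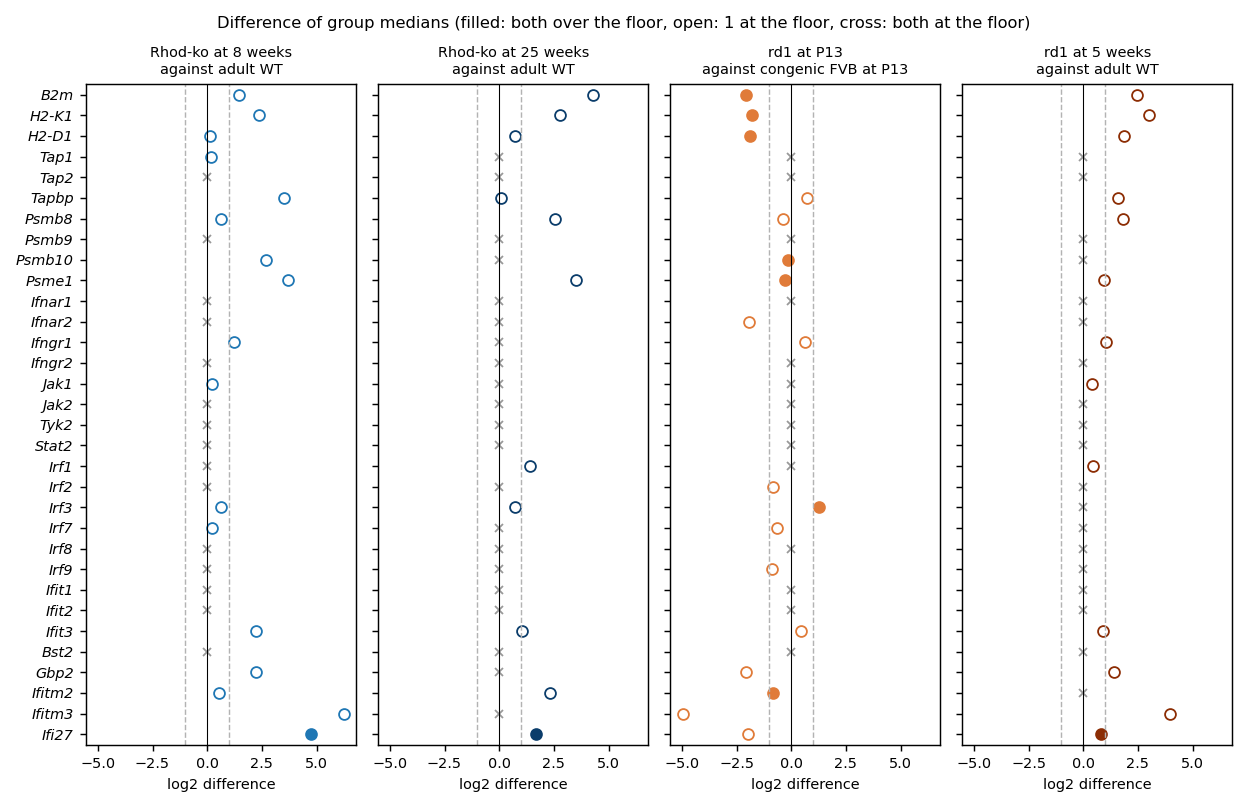
Log2 difference of group medians (horizontal axis, floor of 1000) for the 32 members in the 4 comparisons, where filled circles have both medians over the floor, open circles 1 median at the floor and crosses both, and dashed lines mark 2-fold. Values past the lines lie to the right in the 3 comparisons with adult WT, where the adult WT medians allowed no member a lower call. They lie mostly to the left in rd1 against congenic FVB at P13.

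Other genes of the same pathways were taken from a list of 116 genes, of which 99 were measured. In Rhod-ko at 8 weeks 11 of the 99 (11.1%, against 6.17% of all genes) were at least 2-fold higher and 4 (4.04%, against 5.12%) lower, and 9 of the 11 were among 52 other response genes, none of which was lower. At 25 weeks 10 (10.1%, against 7.9%) were higher and 1 (1.01%, against 3.7%) lower. In rd1 at P13 none was higher than in congenic FVB (0 of 99, against 4.79%) and 9 (9.09%, against 6.41%) were lower. In rd1 at 5 weeks 6 (6.06%, against 6.35%) were higher and 1 (1.01%, against 4.25%) lower. The shares of higher genes at 25 weeks and at 5 weeks thus lay near those of all genes. Ifi35, a response gene, was on in all Rhod-ko cells at 8 weeks (13812 to 41241) and 25 weeks (6700.0 to 24371) and in 2 of 5 adult WT cells (88.2 to 13638). Oasl2, of the family of oligoadenylate synthetases, was on in 0 of 5 adult WT cells (3.4 to 380.1), in 4 of 5 Rhod-ko cells at 8 weeks (1317 to 16127) and in 3 of 5 at 25 weeks. Xaf1 was on at each Rhod-ko age in 4 of 5 cells, up to 54705 and 6816, and in none of the cells of the other 4 conditions, where its highest signal was 905.8. Lgals3bp, a secreted glycoprotein, was on at 8 weeks in 4 of 5 Rhod-ko cells (1432 to 28872) and at most 959.0 in adult WT. Oasl2, Xaf1 and Lgals3bp were named because they were higher without overlap in a Rhod-ko condition, and Ifi35 partly for this reason. The lack of overlap is thus how they were chosen and not a result. Of all genes, 0.698% were higher so at 8 weeks and 0.324% at 25 weeks.

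Of 6 genes of the standard proteasome and its partners, 1 was higher and 1 lower in Rhod-ko at 8 weeks (6.17% and 5.12% of all genes). At 25 weeks 3 were higher and 0 lower (7.9% and 3.7% of all). In rd1 at P13 0 were higher and 1 lower (4.79% and 6.41% of all), and at 5 weeks 1 was higher and 0 lower (6.35% and 4.25% of all). Pomp, which helps both kinds of proteasome to assemble, was on in 0 of 5 adult WT cells (5.9 to 379.3) and in all 5 Rhod-ko cells at 8 weeks (5146 to 24699.6) and at 25 weeks (9143 to 12461). It was higher without overlap in both, as were 0.698% and 0.324% of all genes. Psmb5 and Psmb6, standard catalytic subunits, were each on in 3 of 5 adult WT cells and in 4 or 5 of 5 Rhod-ko cells at either age. Psmb7, whose place Psmb10 takes in the immunoproteasome and which was singled out after its values were seen, had a median of 35.6 in Rhod-ko at 8 weeks against 3403 in adult WT, at least 3.4-fold lower. Of the chaperones of class I, Calr was at least 2.61-fold higher and Canx 5.18-fold lower in Rhod-ko at 8 weeks, where Canx was on in 1 of 5 cells against 5 of 5 in adult WT. The medians of all 9 class II genes measured, among them Ciita, H2-Oa and H2-DMb2, lay under 1000 in every group compared. Pdia3, a further member of the loading complex, was on in 5 of 27 cells, Gbp7 in 10, and Ifrd1 and Pias1 in 9 each. Of 7 interferon genes, Ifna1 was on in 1 adult WT cell and 2 Rhod-ko cells at 8 weeks, while Ifna5 and Ifnb1 were on in no cell. Stat3, which is used by many cytokine receptors, was at least 3.85-fold higher in Rhod-ko at 25 weeks. Ptpn11, a phosphatase of these pathways, was on in 4 of the 5 adult WT cells and in 0 of 5 at 8 weeks in Rhod-ko, at least 4.1-fold lower.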

How the data were processed

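The deposited values were MAS5 signal intensities from Affymetrix Mouse Genome 430 2.0 arrays, which the authors scaled so that every array has the same trimmed mean (500 here, with 2% trimmed at each end). The mRNA of each cell was amplified by PCR before labelling, so signals of 1 cell carry amplification error, and 1 array per cell limits precision. Of 45101 probe sets, 34958 carried 1 gene symbol, 932 several and 9211 none, and 34754 of the first were matched to RefSeq by Entrez number. A gene took its highest single-symbol probe set in each cell, and medians were ranked between genes only to choose which genes to describe.

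Groups came from the sample labels. Near-identical arrays were averaged where r was at least 0.9 within a condition (log2 of signals floored at 100). The threshold for a gene that was on, 2000, the floor, 1000, and the 2-fold rule were applied as in the report. No p-value was computed. Python 3.11.15 with pandas 2.3.3, NumPy 2.4.6, SciPy 1.17.1 and matplotlib 3.10.9 was used. Only the difference of medians and the check of overlap were tested on simulated data. The members and gene lists were chosen with earlier results of these data known. Members were given cell by cell where they had the highest median of their role, were on in every cell of a condition, or differed 2-fold without overlap in a comparison. Other pathway genes were named where they had 1 of the 3 highest medians of their role or differed so. Alternatives varied the probe set, scaling, floor, threshold, group summary, control and cells. Leaving out the endothelial-like rd1 cells with adult WT as control, and the Rhod-ko cells richest in rod markers, were added after seeing the data.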

Additional observations from a re-analysis of the deposited data

Results flagged for a closer look

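Dixon's criterion was applied to the 13 members given cell by cell (log2 signal with the floor) and to the number of members on, in the 5 conditions of 4 or 5 cells, which made 70 groups. In 15 of these, all of single members, the highest or lowest cell stood apart by that criterion. Its nominal rate of about 1 in 20 groups is for values without a floor and does not hold here. Where all other cells lay under 1000, as for Psmb10 in Rhod-ko at 25 weeks, a cell over the floor stood apart by construction. The 15 can thus not be set against a rate by chance. In adult WT the cells that stood apart were MG22 for H2-D1 (4015) and Psme1 (8477), MG15 for Ifnar2 (12567) and MG1 for Irf3 (13215) and Ifitm2 (14291), each the highest. In Rhod-ko at 8 weeks cell 2 was the lowest for Ifitm3 (27.0). In Rhod-ko at 25 weeks A1 was the highest for Psmb10 (14634) and Ifnar2 (3312), A5 for Ifngr1 (3655) and Jak1 (4699.6), and A4 was the lowest for Psme1 (10.1). In rd1 at 5 weeks A5/A6 was the highest for Psmb10 (9649), B1 for Ifnar2 (10541) and Ifitm2 (9982) and A1 for Irf3 (6968). The cause of these values was not tested.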

How the results depend on the processing

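No paired analysis was possible because no test was run and the cell names do not pair cells across conditions. The shares of all genes called under the settings below are not given here, so a changed count need not be particular to the members. With a floor of 500, 17 members were higher in Rhod-ko at 8 weeks and 3 in rd1 at P13. With a floor of 2000, 5 were higher in Rhod-ko at 25 weeks, 0 in rd1 at P13 and 4 in rd1 at 5 weeks. With group means, 4 were lower in rd1 at P13. With congenic FVB as control of rd1 at 5 weeks, 3 were higher and 6 lower. With adult WT as control of rd1 at P13, 5 were higher and 0 lower, and without the endothelial-like rd1 cells as well, an alternative chosen after seeing the data, 4 and 0. No member could be called lower against adult WT. With a threshold of 500, the median number on was 9 in adult WT, 20 and 14 in Rhod-ko at 8 and 25 weeks, 17 in congenic FVB and 13 in rd1 at 5 weeks. With a threshold of 1000 it was 15 in Rhod-ko at 8 weeks, 14 in congenic FVB and 10.5 in rd1 at 5 weeks, which was also 10.5 with a common 90th percentile. The median number on of rd1 at P13, 6, ran from 5 to 12 over these settings, against a spread of 2 to 16 between its cells. Leaving out 1 cell at a time gave 9 to 11 higher in Rhod-ko at 8 weeks, 7 to 10 higher and 0 to 1 lower at 25 weeks, 1 to 2 higher and 4 to 8 lower in rd1 at P13, and 6 to 9 higher in rd1 at 5 weeks. Counts rest on 3 to 5 cells a condition, and signals near the floor have no order.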
